A study of Mus musculus with 12 samples.

Results

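Nuclear receptors are transcription factors that most often act as sensors of small lipophilic molecules such as fatty acids, bile acids, steroids, retinoids and thyroid hormone. Many of those that sense lipids, bile acids and foreign compounds bind DNA together with a retinoid X receptor, and in the liver they set the expression of genes of fatty acid oxidation, bile acid transport, drug metabolism and lipoprotein production. Orphan members act without an established ligand, and the NR4A members are induced rapidly by many stimuli. Described here are 36 nuclear receptor genes, taken by name from a list and found in all 12 count tables, out of 24062 gene symbols counted. They comprised receptors for fatty acids and other lipids, bile acids and xenobiotics, the retinoid X receptors, receptors for retinoic acid, thyroid hormone and steroids, and clock, estrogen-related and orphan receptors.

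Poly(A) RNA was sequenced from 12 mice in 4 groups of 3. MYC-ON livers came from male FVB mice carrying LAP-tTA and TRE-MYC, in which a hepatocyte-active promoter drives the tetracycline transactivator and thereby a human MYC transgene. Doxycycline at 1 mg/mL in the drinking water of the breeders kept the transgene off until birth. The labels state an age of 45 days for males compared with wild-type mice and none for the diet groups, and the study describes a somewhat later day of collection for mice fed these diets. Control diet was fed to mice 101, 102 and 103, while mice 105, 107 and 108 were fed without tryptophan (No-Trp diet). HCC53N xenografts grew under the skin of female immunodeficient mice, spelled NOD-SKID in the labels. They came from 1 mouse liver tumor line described in the labels as derived from Myc, lacking p53 and overexpressing mutant NRAS. The study itself names only p53 loss and mutant Nras as drivers of the tumors behind this line, so the sources differ on Myc. Of the xenograft hosts, 41, 43 and 40 were controls, and 35, 36 and 37 received no tryptophan. Diets lasted 21 days in both models. The 2 models differ in host strain, sex, tissue, site and cell line, and these cannot be told apart in any comparison between them. Each mouse gave 1 library, so the tests below measure the spread between mice.

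Libraries held 14660963 to 26085349 reads assigned to genes. Control liver 101 stood apart through Rn45s, a ribosomal RNA precursor, which took 12.1% of its assigned reads against 2.22% in control liver 102 and at most 0.758% elsewhere. Hepatocyte markers (Alb, Apoa1, Ttr, Serpina1c, Fgb and Tat) checked the tissue labels, and none was at 0 in any group. Their summed level was 8790.2 to 35451 CPM (counts per 1000000 reads) in control livers and 44665 to 112720 CPM in No-Trp livers, with control liver 102 the highest of the controls. Control xenografts had 325 to 1428 CPM, and No-Trp xenografts 311 to 761 CPM. Levels are given as CPM of the composition-corrected library size throughout, in the mouse order stated above.

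The upstream sequences of 4 receptors that rose together in livers on the No-Trp diet are shown because they include the bile acid receptor, both xenobiotic sensors and their common partner. Sequences are RefSeq annotation on GRCm38.p6, 250 bases ending just before an annotated start, written 5′ to 3′ on the strand of the gene. Capitals mark the E-box CACGTG, the letters that MYC with MAX is known to bind, and AGGTCA, the half-site of many nuclear receptors, on either strand. The Nr1h4 and Rxra windows lie before starts inside the bounds of the genes, and the other windows before the first start.
Nr1i3, chr1:171213720-171213969, plus strand: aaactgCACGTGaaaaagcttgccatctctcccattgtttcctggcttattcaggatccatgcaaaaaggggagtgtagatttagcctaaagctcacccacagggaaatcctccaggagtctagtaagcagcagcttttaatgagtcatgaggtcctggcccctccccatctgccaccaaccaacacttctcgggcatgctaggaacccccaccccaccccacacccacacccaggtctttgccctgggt
Nr1h4, chr10:89506659-89506908, minus strand: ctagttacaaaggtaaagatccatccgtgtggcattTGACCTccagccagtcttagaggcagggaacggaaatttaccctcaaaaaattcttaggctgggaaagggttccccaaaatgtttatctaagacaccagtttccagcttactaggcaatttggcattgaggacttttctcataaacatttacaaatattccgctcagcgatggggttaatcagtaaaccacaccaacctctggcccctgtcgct
Rxra, chr2:27709042-27709291, plus strand: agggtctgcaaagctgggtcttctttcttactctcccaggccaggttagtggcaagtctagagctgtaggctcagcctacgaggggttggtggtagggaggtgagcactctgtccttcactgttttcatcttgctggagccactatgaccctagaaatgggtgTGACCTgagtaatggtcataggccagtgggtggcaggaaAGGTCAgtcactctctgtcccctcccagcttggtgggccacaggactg
Nr1i2, chr16:38294825-38295074, minus strand: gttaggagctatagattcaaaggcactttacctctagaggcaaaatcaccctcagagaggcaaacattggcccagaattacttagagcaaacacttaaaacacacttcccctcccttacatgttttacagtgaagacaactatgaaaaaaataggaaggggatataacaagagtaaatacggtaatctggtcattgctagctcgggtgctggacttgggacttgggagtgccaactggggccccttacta
The Nr1i3 window held 1 E-box, which began 244 bases before the start. The Nr1h4 window held 1 half-site at 214 bases on the minus strand of the gene, and the Rxra window held a half-site at 87 bases on the minus and another at 48 bases on the plus strand. Nr1i2 had neither in this window, nor did the other Rxra window, chr2:27676951-27677200, which lies before an earlier start of that gene and is not printed. Of the 36 receptors, 33 matched the promoter table with 51 windows. The E-box stood in 7.84% of these windows (Nr0b2, Nr1i3, Rara and Thrb) and in 6.02% of all 32851 windows. The half-site stood in 19.6% of the receptor windows, from 9 receptors, and in 14% of all windows. The ROR element core TAGGTCA, which contains the half-site, and CAAAGTCCA, an HNF4 motif, were in no receptor window, against 2.23% and 0.384% of all windows. Such matches describe letters only and do not show binding.

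In MYC-ON livers, 14 of 34 tested receptors rose on the No-Trp diet and 0 fell. They were Ppara, Pparg, Nr1h3, Nr1h4, Nr1i2, Nr1i3, Rxra, Thrb, Esr1, Rora, Nr1d2, Esrrg, Nr2f1 and Nr2c1, with log2 fold changes from 1.02 for Pparg to 3.15 for Nr1i3 and Esr1. A gene was called here when the adjusted p was at most 0.05 and the log2 fold change at least 1 in size. Across all 14122 tested genes, 9.28% were called higher and 7.27% lower, so the receptor count stands beside a background of 16.5% called in either direction. The median log2 fold change of the tested receptors was 0.95, and that of all genes was -0.0031. Another 3 receptors, Nr1h2, Nr5a2 and Nr6a1, passed the adjusted p with a smaller change, so that 17 passed it upward (13.3% of all genes). An unadjusted p of at most 0.05 was reached by 18 receptors and by 41.8% of all genes. All control mice were below all No-Trp mice for 21 receptors, and the reverse held for 1 (Rxrb), against 23.6% and 25% of all genes.

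**Figure D1:**
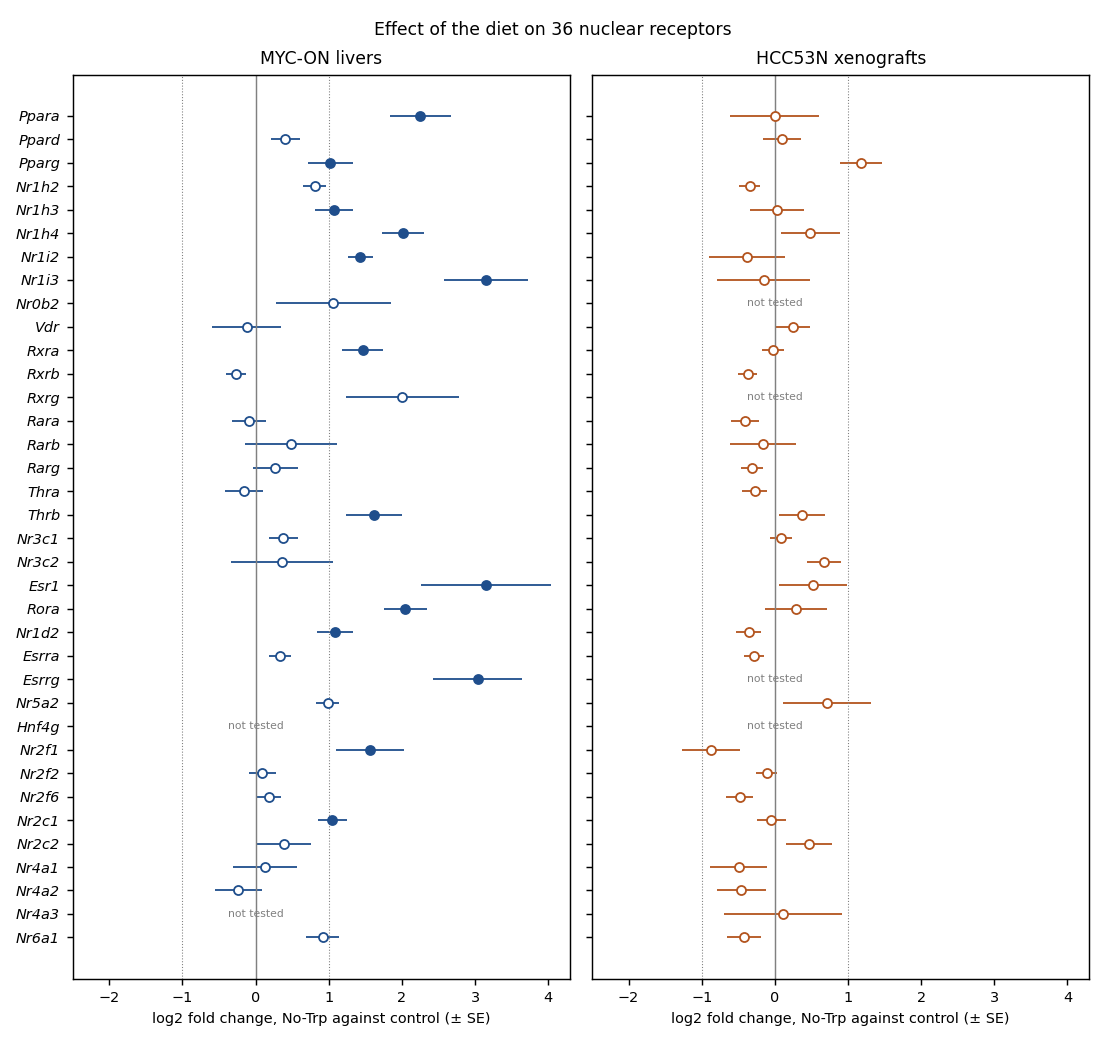
Log2 fold change of No-Trp against control diet with its standard error for 36 nuclear receptors, in MYC-ON livers and in HCC53N xenografts. Filled points mark receptors called, and dotted lines a change of 1 in size. 14 receptors are filled on the liver side and 0 on the xenograft side.

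The number of liver calls moved with individual animals. Over the 6 fits that each left out 1 mouse, Nr1i2 and Rora stayed called in 5, Nr1h4 in 4, Ppara, Rxra and Esrrg in 3, Nr1i3, Thrb, Nr1d2 and Nr2c1 in 2, Nr1h3 and Esr1 in 1, and Pparg and Nr2f1 in 0. Leaving out control 103 brought the count to 0 of 14. Without control mouse 101 it was 2, without No-Trp mouse 105 it was 3 and without No-Trp mouse 107 it was 6. With 103 left out, edgeR called only 8 of 14240 genes tested. An unadjusted p of at most 0.05 was then reached by 4363 genes, all 14 receptors among them. All 14 log2 fold changes stayed positive in these fits. The 14 were chosen from these same mice, with diet groups that did not overlap, so their signs and unadjusted p are no separate support.

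Bulk RNA cannot tell fewer cells of a type from less RNA per cell, and several marker lists moved with the liver diet. The study also describes lower liver weights, fewer and smaller tumors and less MYC expression in MYC-ON mice fed without tryptophan. The livers of the diets compared here may thus differ in how much tumor they held. Of 6 hepatocyte markers 2 were called higher and 0 lower, and their sums did not overlap between diets. Among 12 proliferation genes 10 fell, with summed levels of 1948 to 2159.8 CPM in control and 198 to 665 CPM in No-Trp livers. Of 6 erythroid markers 4 fell (57.9 to 579 against 15.8 to 26.1 CPM), and endothelial sums were 112 to 217 and 265 to 421 CPM with 3 of 8 markers called higher. Adipocyte sums were 5.02 to 6.65 CPM in control and 14.5 to 61.01 CPM in No-Trp livers, without overlap, and 1 of 2 tested markers was called higher. That marker, Cidec, went from a mean of 3.68 to 29.6 CPM. Adipoq (0.209 to 0.318 CPM) and Plin1 (0.166 to 0.369 CPM) were rare. Cfd (1.65 to 1.26 CPM), Retn (0.185 to 0.155 CPM) and Lep (0.0721 to 0.0205 CPM) had lower means in No-Trp livers. Among the proliferation genes, Mki67 had -2.39 (adjusted p = 0.0223), Top2a -2.32 (adjusted p = 0.0253) and Plk1 -2.17 (adjusted p = 0.0321) as log2 fold changes. Within the controls, mouse 102 had the highest hepatocyte sum, and it was the highest control for 12 of the 14 called receptors. Mouse 107 had the highest hepatocyte sum of the No-Trp mice and was the highest for 11 of the 14. The part of these shifts, and of the amount of tumor, in the receptor changes was not tested.

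**Figure D2:**
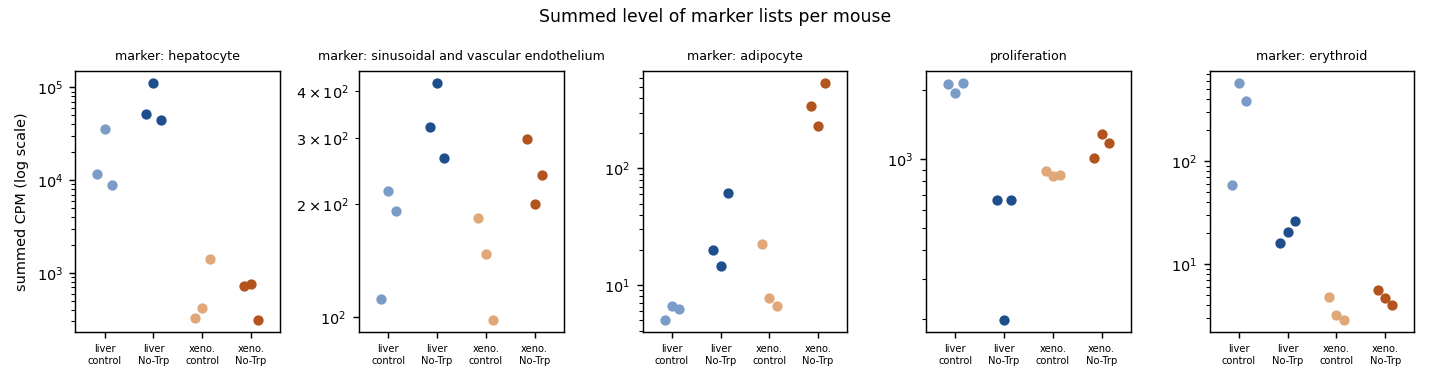
Summed CPM on a log axis for hepatocyte, endothelial, adipocyte, proliferation and erythroid gene lists, 1 point per mouse in the 4 groups. No-Trp livers sit above control livers for hepatocyte, endothelial and adipocyte markers and below them for proliferation and erythroid genes. No-Trp xenografts sit above control xenografts for adipocyte and endothelial markers and for proliferation genes.

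Ppara, the fatty acid sensor that drives genes of fatty acid oxidation, was measured at 57.7, 137 and 75.6 CPM in control livers and 409, 590.4 and 272 CPM in No-Trp livers. It rose 4.77-fold, with a log2 fold change of 2.25 (SE 0.41, adjusted p = 0.0196) by edgeR's quasi-likelihood test with Benjamini-Hochberg adjustment, as in all values below. The Ppara gene lies at chr15:85734983-85802819 on mm10. Every No-Trp liver was above every control liver. Pparg, the adipogenic member of the family, was at 3.76, 5.97 and 5.87 CPM in control against 7.78, 12.8 and 10.8 CPM in No-Trp livers, a log2 fold change of 1.02 (SE 0.31, adjusted p = 0.0477). It was a low and marginal call, lost in all 6 fits that left out 1 mouse. The adipocyte marker sums given above lay higher in every No-Trp liver than in every control, and Cidec was the largest part of their mean in No-Trp livers. The part of these sums in the Pparg value was not tested. Ppard, the broadly expressed member, was 13.5, 10.4 and 10.8 CPM in controls and 14.8, 16.1 and 14.6 CPM in No-Trp livers, and its log2 fold change of 0.41 (SE 0.20, adjusted p = 0.169) did not pass.

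Nr1h3 (LXRα), an oxysterol receptor of liver and macrophages, was at 47.8, 85.7 and 47.8 CPM in control livers and 105, 132 and 138 CPM in No-Trp livers, with a log2 fold change of 1.07 (SE 0.26, adjusted p = 0.0298). Its groups did not overlap. Nr1h2 (LXRβ), the ubiquitous oxysterol receptor, was at 53.7, 57.7 and 51.8 CPM in control against 88.2, 111 and 82.8 CPM in No-Trp livers. Its log2 fold change of 0.81 (SE 0.16, adjusted p = 0.0216) passed the adjusted p but not the fold limit.

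The sensors of bile acids and foreign compounds, which bind DNA with Rxra, came next. Nr1h4 (FXR), the bile acid receptor, was at 52.2, 91.7 and 45.01 CPM in control and 214, 263 and 278 CPM in No-Trp livers, a 4.05-fold rise with log2 fold change 2.02 (SE 0.29, adjusted p = 0.0146). Nr1i2 (PXR), a receptor for drugs and other foreign compounds, was at 88.4, 110.1 and 80.8 CPM in control against 231, 250.4 and 263 CPM in No-Trp livers, and its log2 fold change was 1.43 (SE 0.17, adjusted p = 0.0127). Both sets of mice were separate for each gene.

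Nr1i3 (CAR), the constitutive androstane receptor of drug metabolism, was at 20.7, 67.7 and 20.3 CPM in controls and 252, 472 and 224 CPM in No-Trp livers, with log2 fold change 3.15 (SE 0.58, adjusted p = 0.0196). Control mouse 102 was above the other controls, and without it the log2 fold change was 3.95, against a low of 2.72 without No-Trp mouse 107. Tomm40l, a mitochondrial import gene on the opposite strand, shares 74.9% of the exon bases of Nr1i3, and whether the counting used strand is not stated. Tomm40l went from 46.7, 89.5 and 42.9 to 279, 505 and 178 CPM, with log2 fold change 2.45 (SE 0.46, adjusted p = 0.0199), so reads of the 2 genes cannot be told apart and the Nr1i3 value is uncertain. Nr0b2 (SHP), the repressor that FXR induces, was spread widely at 10.5, 7.33 and 16.1 CPM in control against 8.01, 53.8 and 8.16 CPM in No-Trp livers, where mouse 107 was far above the rest. Its log2 fold change of 1.06 (SE 0.79, adjusted p = 0.345) did not pass. Vdr, the vitamin D receptor, was low at 1.45, 0.789 and 0.919 CPM in control against 1.37, 0.923 and 0.544 CPM in No-Trp livers, and its log2 fold change was -0.12 (adjusted p = 0.867).

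Rxra, the retinoid X receptor that partners most of these sensors, was at 183, 321 and 223 CPM in controls and 636, 817 and 524 CPM in No-Trp livers, with log2 fold change 1.46 (SE 0.28, adjusted p = 0.02101). All No-Trp mice were above all controls. Rxrb was 78.9, 84.4 and 94.05 CPM in control against 72.2, 68.2 and 70.3 CPM in No-Trp livers, all No-Trp mice below all controls, but its log2 fold change of -0.27 (SE 0.14, adjusted p = 0.174) did not pass. Rxrg was low, at 0.386, 3.44 and 0.599 CPM in control against 5.21, 7.63 and 4.35 CPM in No-Trp livers, and its log2 fold change was 2.01 (SE 0.78, adjusted p = 0.0951). DESeq2 called it.

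Among receptors for hormones, Thrb, the main thyroid hormone receptor of liver, was at 12.5, 24.4 and 11.8 CPM in control and 49.5, 66.5 and 30.9 CPM in No-Trp livers, with log2 fold change 1.62 (SE 0.38, adjusted p = 0.0282). Thra, its widely expressed counterpart, had 14.3, 26.8 and 24.6 CPM in control against 20.9, 19.7 and 17.4 CPM in No-Trp livers and a log2 fold change of -0.16 (adjusted p = 0.668). The thyroid receptor genes differed in that Thrb groups were separate and Thra groups overlapped, without a test of that difference. Esr1, the estrogen receptor α, was at 1.16, 8.62 and 1.04 CPM in controls and 28.1, 47.9 and 17.1 CPM in No-Trp livers, with log2 fold change 3.15 (SE 0.89, adjusted p = 0.0434). Control mouse 102 was again far above 101 and 103, and the SE is the largest among the called receptors. Without mouse 102 the log2 fold change of Esr1 was 4.82, and without No-Trp mouse 107 it was 2.67. Nr3c1, the glucocorticoid receptor, was at 72.96, 87.7 and 80.3 CPM in control against 89.9, 131 and 88.9 CPM in No-Trp livers with separate groups and a log2 fold change of 0.38 (adjusted p = 0.183). Nr3c2, the mineralocorticoid receptor, had a log2 fold change of 0.36 (adjusted p = 0.724), and the retinoic acid receptors Rara, Rarb and Rarg had -0.09 (adjusted p = 0.794), 0.48 (adjusted p = 0.587) and 0.27 (adjusted p = 0.539).

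The clock receptor Rora, an activator of core clock genes, was at 13.9, 25.8 and 17.5 CPM in controls and 72.3, 100.1 and 61.2 CPM in No-Trp livers, with log2 fold change 2.05 (SE 0.29, adjusted p = 0.0142). Every No-Trp liver was above every control. Nr1d2 (REV-ERBβ), a repressor of the same clock genes, was at 58.8, 69.9 and 66.9 CPM in control against 120.3, 187 and 102 CPM in No-Trp livers with log2 fold change 1.08 (SE 0.24, adjusted p = 0.0255). Its groups did not overlap.

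Esrrg, an estrogen-related receptor of oxidative metabolism, was rare at 0.0965, 0.564 and 0.319 CPM in control and 1.66, 3.57 and 2.72 CPM in No-Trp livers, a log2 fold change of 3.04 (SE 0.61, adjusted p = 0.0219) on 2 to 58 reads, and it entered the test through the No-Trp livers. Esrra, its relative, had 56.7, 72.98 and 59.4 CPM in control against 74.9, 78.5 and 81.1 CPM in No-Trp livers and a log2 fold change of 0.33 (adjusted p = 0.139). Nr2f1 (COUP-TFI), an orphan repressor, was at 0.676, 0.451 and 0.319 CPM in control against 1.49, 1.78 and 0.933 CPM in No-Trp livers with log2 fold change 1.56 (SE 0.46, adjusted p = 0.0465), a call lost in all 6 fits that left out a mouse. It had 8 to 14 reads in control livers and also entered the test through the No-Trp livers. With at least 10 reads required in every library, neither Esrrg nor Nr2f1 was tested, and 12 of the 14 calls were left.

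Nr2c1 (TR2), an orphan receptor, was at 14.2, 16.1 and 17.2 CPM in control and 29.5, 38.9 and 28.8 CPM in No-Trp livers, with log2 fold change 1.05 (SE 0.20, adjusted p = 0.0196). Nr5a2 (LRH-1), an orphan regulator of bile acid synthesis, was at 30.9, 39.4 and 35.3 CPM in control against 69.8, 74.8 and 61.9 CPM in No-Trp livers with log2 fold change 0.98 (SE 0.16, adjusted p = 0.0173), just under the fold limit, where Nr2c1 lay just over it. Nr6a1, the germ cell nuclear factor, was at 13.5, 14.4 and 17.5 CPM in control against 21.7, 30.4 and 32.7 CPM in No-Trp livers with log2 fold change 0.92 (SE 0.22, adjusted p = 0.0298). Remaining orphan receptors did not pass, namely Nr2f2 with 0.09 (adjusted p = 0.737), Nr2f6 with 0.18 (adjusted p = 0.448), Nr2c2 with 0.38 (adjusted p = 0.4601), Nr4a1 with 0.12 (adjusted p = 0.853) and Nr4a2 with -0.24 (adjusted p = 0.615). Nr2f6 and Nr2c2 share 54.4% and 30.7% of exon bases with the opposite-strand genes Ocel1 and Mrps25 and Rarb shares 34.1% with Top2b, so their values are uncertain in the same way. Hnf4g and Nr4a3 were too low to test in livers, with at most 1.13 and 0.849 CPM in any of the 12 mice.

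**Figure D3:**
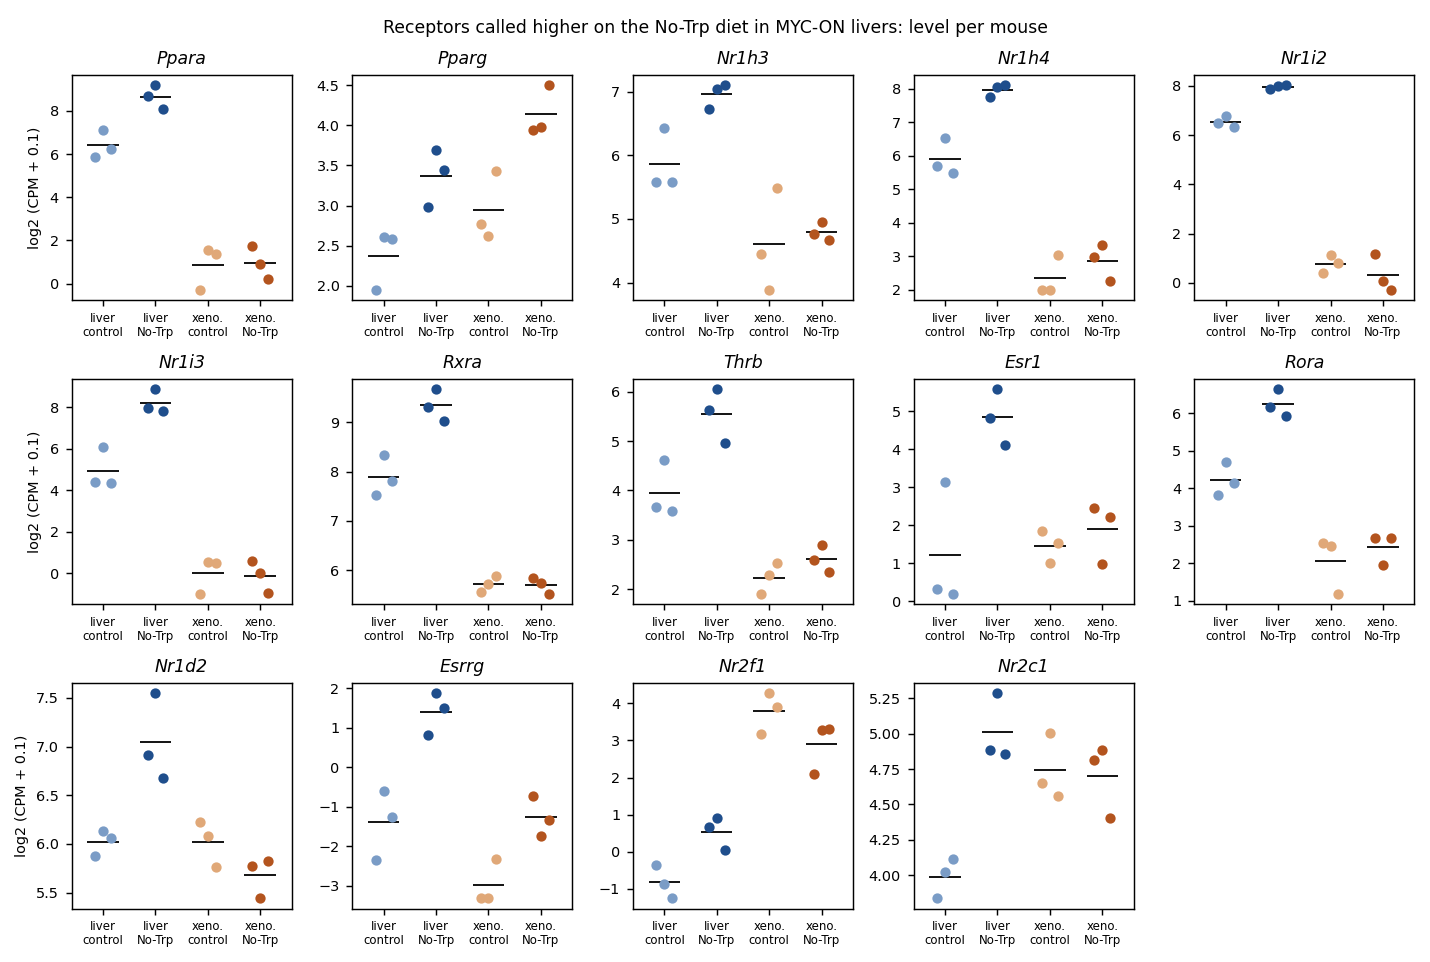
Level of the 14 receptors called in livers, as log2 of CPM plus 0.1, 1 point per mouse with a line at the mean of each group. In livers the No-Trp mice lie above the control mice for each of the 14, and the axes differ between panels.

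In HCC53N xenografts, 0 of 32 tested receptors were called on the No-Trp diet, and 5 had an unadjusted p of at most 0.05 (16.9% of all genes). Of all 14704 genes tested 0.36% were called, 0.245% higher and 0.116% lower, so the absence of calls among receptors is close to the background. DESeq2 called 1 receptor, Pparg. Log2 fold changes of the tested receptors ran from -0.88 for Nr2f1 to 1.18 for Pparg, with a median of -0.08.

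Pparg stood at 6.74, 6.03 and 10.7 CPM in control and 15.2, 15.6 and 22.6 CPM in No-Trp xenografts, with separate groups and log2 fold change 1.18 (SE 0.29, adjusted p = 0.119). Adipocyte markers moved in the same direction, with 4 of 6 tested called higher and summed levels of 6.62 to 22.5 and 231 to 546 CPM. Sums without overlap were also higher for skeletal muscle (3.38 to 19.6 and 34.1 to 68.0 CPM), endothelial (98.4 to 184 and 200 to 297 CPM) and neutrophil markers (7.54 to 9.27 and 11.4 to 14.4 CPM). Proliferation sums rose from 846 to 886 to 1008 to 1294 CPM, opposite to livers. No gene of those lists was called, and the other marker sums overlapped. The part of these shifts in the result was not tested. Of the other receptors that rose in livers, Ppara had a log2 fold change of -0.00 (SE 0.61) in xenografts and Nr1h4 of 0.48 (SE 0.40). The corresponding values were -0.03 (SE 0.15) for Rxra, 0.02 (SE 0.37) for Nr1h3, 0.29 (SE 0.43) for Rora and -0.38 (SE 0.52) for Nr1i2. Nr1h2, Rxrb and Nr2f6 were lower at an unadjusted p of at most 0.05 with log2 fold changes of -0.35 (adjusted p = 0.262), -0.37 (adjusted p = 0.218) and -0.48 (adjusted p = 0.241), and Nr3c2 was higher with 0.67 (adjusted p = 0.214). None of these passed the adjustment.

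The diet effects of the models were then compared directly by an interaction term, the effect in xenografts minus that in livers, over all 12 libraries. Of 35 tested receptors 9 were called, all negative, against 6.01% of genes called lower, 6.7% called higher and 12.7% in all. They were Nr1i3 with -3.22 (adjusted p = 0.0333), Nr2f1 with -2.42 (adjusted p = 0.0266), Nr1i2 with -1.76 (adjusted p = 0.0234), Rora with -1.73 (adjusted p = 0.0408), Rxra with -1.46 (adjusted p = 0.0145), Nr1d2 with -1.42 (adjusted p = 0.0147), Nr6a1 with -1.32 (adjusted p = 0.0208), Nr1h2 with -1.12 (adjusted p = 0.00819) and Nr2c1 with -1.07 (adjusted p = 0.0279). Of the 9, 7 were also called in the livers, and Nr1h2 and Nr6a1 were not. Ppara, Nr1h4, Thrb, Esr1 and Nr1h3 rose in livers but their interactions of -2.19 (adjusted p = 0.0652), -1.500 (adjusted p = 0.0628), -1.21 (adjusted p = 0.106), -2.59 (adjusted p = 0.112) and -1.02 (adjusted p = 0.178) did not pass. With the mark of resubmission as a covariate Ppara, Nr1h4 and Thrb were called and Rora was not, DESeq2 also called Ppara, Nr1h4 and Esr1, and without control liver 102 all 4 were called. Whether the diet effect on these 4 differed between models thus depended on the fit. Interactions of Pparg and Esrrg were 0.18 (adjusted p = 0.816) and 0.13 (adjusted p = 0.905). Nr1i3 is subject to the overlap with Tomm40l, which had an interaction of -2.56 (adjusted p = 0.0109). Over the 12 fits that each left out a mouse, Rxra and Nr1d2 stayed called in 12, Nr1h2 and Nr6a1 in 11, Nr1i2 in 9, Nr2f1 in 8, Nr2c1 in 7, Nr1i3 in 5 and Rora in 3. The whole count ranged from 4 to 13; the lowest count, 4, came without control liver 103, No-Trp liver 107 or control xenograft 43, 5 came without No-Trp xenograft 36, and the median of all genes lay at 0.03.

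Receptor levels also differed between the models on each diet, which share libraries with the diet comparisons. On the control diet 7 of 35 tested receptors were higher in xenografts and 13 lower, against 23.3% of all genes called higher and 20.2% lower (43.5% in all). Without tryptophan 7 were higher and 16 lower, against 24.5% and 19.1% (43.7% in all). With at least 10 reads required in every library, Esrrg, Nr0b2, Nr2f1, Nr5a2, Rxrg and Vdr were not tested in either comparison. That left 14 receptors called on the control diet and 17 without tryptophan, beside 4797 and 4804 of 12101 genes. The calls of these low-count receptors thus rest on the model where they were higher. With library totals in place of composition factors, which moves the median log2 difference of all genes from 0.15 to 0.68, the No-Trp counts were 10 higher and 13 lower. All 20 receptors called on the control diet were called again without tryptophan, and Esr1, Nr1d2 and Nr6a1 were called there in addition.

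Receptors lower in xenografts included those of hepatocyte lipid, bile acid and drug sensing. Ppara was 0.718, 2.803 and 2.501 CPM in control xenografts and 3.19, 1.77 and 1.06 in No-Trp xenografts, with log2 differences of -5.52 (adjusted p = 1.19e-05) and -7.71 (adjusted p = 1.47e-06) from livers of the same diet. Nr1i2 was 1.24, 2.07 and 1.67 CPM in control against 2.14, 0.967 and 0.721 CPM in No-Trp xenografts, with differences of -5.82 (adjusted p = 8.79e-08) and -7.59 (adjusted p = 2.67e-08). For both genes every xenograft lay below every liver.

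Nr1h4 was 3.91, 3.900 and 8.14 CPM in control against 7.73, 10.1 and 4.71 CPM in No-Trp xenografts, with log2 differences of -3.56 (adjusted p = 1.03e-05) and -5.06 (adjusted p = 8.71e-07). Nr1i3 was 0.399, 1.34 and 1.32 CPM in control against 1.41, 0.901 and 0.424 CPM in No-Trp xenografts, with -5.18 (adjusted p = 4.57e-05) and -8.41 (adjusted p = 2.10e-06), subject to the overlap given above. Nr5a2 was 0.598, 0.609 and 0.343 CPM in control against 0.943, 0.367 and 1.27 CPM in No-Trp xenografts, with -6.07 (adjusted p = 1.20e-07) and -6.33 (adjusted p = 6.55e-08). Hepatocyte markers as a list were called lower in xenografts for 6 of 6 on the control diet, and the part of that difference in the receptor values was not tested.

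Rxra was 46.6, 52.6 and 58.6 CPM in control against 56.8, 53.6 and 45.5 CPM in No-Trp xenografts, with log2 differences of -2.21 (adjusted p = 6.70e-06) and -3.66 (adjusted p = 1.67e-07). Nr1h3 was 21.7, 14.7 and 44.5 CPM in control against 26.99, 30.7 and 25.2 CPM in No-Trp xenografts, with -1.16 (adjusted p = 0.0134) and -2.18 (adjusted p = 2.74e-04), and Rora was 5.74, 5.36 and 2.16 CPM in control against 6.31, 3.77 and 6.24 CPM in No-Trp xenografts, with -2.11 (adjusted p = 4.45e-04) and -3.84 (adjusted p = 5.39e-06). Thrb was 3.63, 4.75 and 5.64 CPM in control against 5.95, 7.34 and 4.96 CPM in No-Trp xenografts, with -1.796 (adjusted p = 8.73e-04) and -3.01 (adjusted p = 1.93e-05). Nr3c1 was 39.9, 32.2 and 38.1 CPM in control against 42.6, 38.1 and 37.2 CPM in No-Trp xenografts, with -1.13 (adjusted p = 1.43e-04) and -1.39 (adjusted p = 2.55e-05). Nr0b2 had at most 6 reads in a xenograft (0.1197, 0.183 and 0.0981 CPM in control against 0.218, 0.0334 and 0.127 CPM in No-Trp xenografts). Rxrg and Esrrg had only 2 reads each in control xenografts. Summed over the group, Rxrg was 40.9 times higher in control livers, with an exact 95% counting interval of 10.98 to 343, and Esrrg 9.74 times higher with an interval of 2.37 to 85.97, which cover counting error only.

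Esr1 was 3.47, 1.89 and 2.79 CPM in control xenografts and 5.41, 1.87 and 4.58 CPM without tryptophan, with log2 differences of -0.38 (adjusted p = 0.681) and -2.97 (adjusted p = 0.00555) from the livers. Nr1d2 was 74.8, 67.5 and 54.3 CPM in control against 54.5, 43.4 and 56.5 CPM in No-Trp xenografts, with 0.01 (adjusted p = 0.977) and -1.41 (adjusted p = 1.61e-04), and Nr6a1 was 14.6, 15.1 and 10.98 CPM in control against 12.01, 8.91 and 9.55 CPM in No-Trp xenografts, with -0.16 (adjusted p = 0.563) and -1.48 (adjusted p = 1.52e-04). For each of these 3 receptors the models overlapped under control feeding, and the difference was called only without tryptophan. The other 12 tested receptors were called on neither diet. Among them Thra, at 36.7, 43.3 and 46.2 CPM in control against 40.7, 33.1 and 31.1 CPM in No-Trp xenografts, had log2 differences of 0.94 (adjusted p = 0.00334) and 0.85 (adjusted p = 0.00604), and Nr1h2, at 81.3, 79.5 and 76.2 CPM in control against 57.9, 60.8 and 69.1 CPM in No-Trp xenografts, had 0.54 (adjusted p = 0.00563) and -0.59 (adjusted p = 0.00332), of opposite sign on the 2 diets. Nr2f2, an orphan receptor with a role in vessel and mesenchyme development, had 0.32 (adjusted p = 0.113) and 0.14 (adjusted p = 0.474).

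Receptors higher in xenografts were Ppard, Vdr, Rara, Rarg, Nr2f1, Nr4a1 and Nr4a2 on both diets. Vdr was 14.6, 13.2 and 11.2 CPM in control and 19.8, 13.2 and 13.6 CPM in No-Trp xenografts, with log2 differences of 3.62 (adjusted p = 4.93e-06) and 4.01 (adjusted p = 2.58e-06). Rarg, a retinoic acid receptor, was 63.5, 50.3 and 59.9 CPM in control against 52.2, 44.2 and 44.7 CPM in No-Trp xenografts, with 2.81 (adjusted p = 1.24e-06) and 2.26 (adjusted p = 6.58e-06). Ppard was 73.6, 50.7 and 51.7 CPM in control against 47.2, 55.8 and 86.3 CPM in No-Trp xenografts, with 2.34 (adjusted p = 5.67e-06) and 2.06 (adjusted p = 1.48e-05). Each xenograft of these 3 genes exceeded each liver.

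Nr2f1 was 8.98, 19.3 and 14.96 CPM in control against 4.21, 9.54 and 9.88 CPM in No-Trp xenografts, with log2 differences of 4.89 (adjusted p = 5.05e-06) and 2.48 (adjusted p = 4.47e-04) from the livers. Nr4a1, an immediate-early orphan receptor, was 96.9, 49.96 and 41.7 CPM in control against 40.4, 30.1 and 64.2 CPM in No-Trp xenografts, with 2.702 (adjusted p = 3.92e-04) and 2.11 (adjusted p = 0.00187), and Nr4a2 was 28.1, 32.5 and 13.8 CPM in control against 22.5, 12.8 and 19.4 CPM in No-Trp xenografts, with 2.92 (adjusted p = 2.57e-05) and 2.73 (adjusted p = 4.57e-05). Liver levels of Nr4a1 were 13.2, 7.16 and 8.59 CPM in controls and 5.49, 9.102 and 16.7 CPM in No-Trp livers, and those of Nr4a2 were 3.91, 2.42 and 3.47 CPM in control against 2.402, 2.46 and 3.42 CPM in No-Trp livers. Immediate-early genes as a list were called higher in control-diet xenografts for 9 of 15 with 0 lower, and without tryptophan for 5 with 1 lower, beside 23.3% and 24.5% of all genes called higher. Rara was 70.9, 61.4 and 50.02 CPM in control against 47.5, 53.9 and 36.95 CPM in No-Trp xenografts, with 1.302 (adjusted p = 2.84e-04) and 1.01 (adjusted p = 0.00164).

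**Figure D4:**
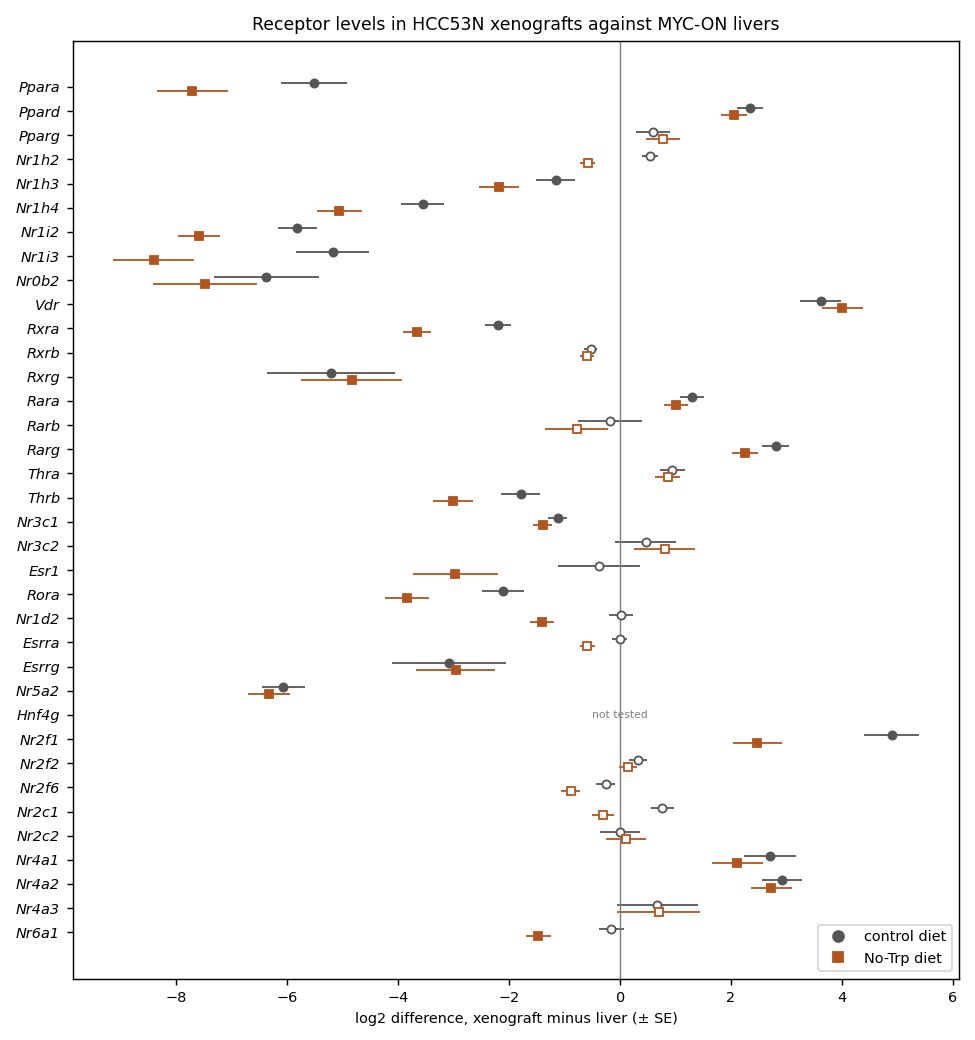
Log2 difference of xenografts minus livers with its standard error, on the control diet (circles) and without tryptophan (squares), for 36 nuclear receptors. Filled symbols mark calls, 20 among the circles and 23 among the squares.

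Per kilobase of transcript, the scale on which receptors can be compared with each other, Rxra was the highest in control livers at 93.2 ± 27.2 CPM per kilobase (mean ± SD, n = 3). It was followed by Nr2f6 at 69.4 ± 2.25, Nr1i2 at 36.5 ± 5.94 and Ppara at 35.8 ± 16.6. In control xenografts the order began with Nr2f6 at 57.8 ± 13.5, Nr1h2 at 40.5 ± 1.35 and Ppard at 36.7 ± 8.099. Neighbours in the order overlapped in 31 of 35 pairs in control livers, 30 in No-Trp livers and 32 in each xenograft group, so the ranks of those pairs do not differ beyond their spread.

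Genes known as targets of these receptors, or as their cofactors, were read from lists, against the 9.28% of all genes called higher in livers. The lists were chosen with earlier results of these data known, so their counts are not independent of these data. For comparison, the 6 hepatocyte markers had a median log2 fold change of 1.40 in livers, with 2 called higher. In livers, PPARA targets (fatty acid oxidation and ω-hydroxylation) rose for 21 of 26, with 0 lower and a median log2 fold change of 1.97. The ω-hydroxylases Cyp4a14, Cyp4a10 and Cyp4a31 had 6.95 (adjusted p = 0.0139), 5.08 (adjusted p = 0.0216) and 6.65 (adjusted p = 0.00279). Cyp4a31 averaged only 0.394 CPM in control against 38.8 CPM in No-Trp livers, so the size of its change rests on few control reads. In xenografts 0 of 24 were called with a median of 0.04.

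CAR and PXR targets rose for 9 of 22 in livers with 1 lower, and their median was 2.503. Cyp2b10, a drug-metabolizing P450, had 3.38 (adjusted p = 0.0232) on 3 to 66 reads, and Cyp3a11 3.07 (adjusted p = 0.0216). The organic anion transporter Slco1a4 rose with 4.22 (adjusted p = 0.0142), Cyp3a25 with 3.47 (adjusted p = 0.0279) and Por, the electron donor of P450 enzymes, with 3.22 (adjusted p = 0.0142), while the efflux pump Abcb1a fell with -1.24 (adjusted p = 0.0202). FXR and SHP targets were called higher for 3 of 12 with 1 lower and a median of 1.75. This list joins genes that FXR induces with genes repressed through SHP, so its median does not measure FXR action in 1 direction. The bile salt pump Abcb11 had 0.05 (adjusted p = 0.919) and Cyp7a1, the rate-limiting enzyme of bile acid synthesis, 3.08 (adjusted p = 0.0848). The basolateral uptake carrier Slc10a1 rose with 1.599 (adjusted p = 0.0488), the phospholipid exporter Abcb4 with 1.89 (adjusted p = 0.0182) and Kng1 with 2.07 (adjusted p = 0.0251), and the bile acid binding protein Fabp6 fell with -5.44 (adjusted p = 0.0146).

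LXR targets were higher for 4 of 11 with 1 lower and a median of 1.097, including the sterol exporters Abcg5 with 2.95 (adjusted p = 0.0222) and Abcg8 with 2.66 (adjusted p = 0.0266), and Abca1 with 1.25 (adjusted p = 0.0249). Scd2, a desaturase, fell with -2.29 (adjusted p = 0.0306). Glucocorticoid receptor targets were higher for 6 of 14 with 0 lower, among them Tat, a tyrosine-degrading enzyme, with 4.43 (adjusted p = 0.0298), Tdo2, a tryptophan-degrading enzyme, with 4.14 (adjusted p = 0.0342), Sgk1 with 2.36 (adjusted p = 0.0136) and Fkbp5 with 1.79 (adjusted p = 0.0108), while Tsc22d3 had 0.95 (adjusted p = 0.178). HNF4 targets were higher for 4 of 10 with a median of 1.08, including Apob with 1.84 (adjusted p = 0.0429), Apoc3 with 2.08 (adjusted p = 0.0419) and Ttr with 1.76 (adjusted p = 0.0302). Tat and Ttr are also among the hepatocyte markers. Thyroid hormone receptor targets were higher for 2 of 8, Me1 with 2.44 (adjusted p = 0.0196) and Gpd2 with 1.74 (adjusted p = 0.03900), while Thrsp had -0.51 (adjusted p = 0.745) and Dio1 -1.25 (adjusted p = 0.553). RAR targets and retinoid handling had 3 of 16 higher, Rarres1 with 2.76 (adjusted p = 0.0244), Cyp26b1 with 2.65 (adjusted p = 0.0467) and Rbp4, the plasma retinol carrier, with 1.796 (adjusted p = 0.0326), and Cyp26a1 had 1.48 (adjusted p = 0.107) and Dhrs3 0.99 (adjusted p = 0.0258).

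Several lists were short or had few calls in livers. Of 7 ROR and REV-ERB targets 1 was higher, Avpr1a with 1.17 (adjusted p = 0.0388), while the clock gene Arntl had 0.12 (adjusted p = 0.795) and Npas2 was too low to test. None of 6 LRH-1 targets was called, 1 of them itself a receptor described here, with Cyp8b1 at 0.08 (adjusted p = 0.967). In the vitamin D pathway 2 of 3 were higher, the vitamin D hydroxylase Cyp27a1 with 1.93 (adjusted p = 0.0236) and the carrier Gc with 1.56 (adjusted p = 0.0314), and Cyp24a1 and Cyp27b1 were too low to test. Of 14 coactivators 1 was higher, Ppargc1a with 1.54 (adjusted p = 0.02801), and 1 lower, the arginine methyltransferase Prmt1 with -1.304 (adjusted p = 0.0435), while Ncoa1 had 0.48 (adjusted p = 0.0842). None of 10 corepressors was called, with Ncor1 at 0.03 (adjusted p = 0.8998). Of 15 immediate-early genes 1 was higher, Zfp36 with 1.24 (adjusted p = 0.0216), while Fos had 0.24 (adjusted p = 0.716) and Egr1 2.104 (adjusted p = 0.151).

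In xenografts, among the lists tested, calls were made only in the PPARG and adipocyte targets, where 5 of 7 were higher with a median of 4.25, and in the adipocyte markers. Fabp4 had 3.44 (adjusted p = 0.1198) there, Adipoq 4.698 (adjusted p = 0.0299), Plin1 5.48 (adjusted p = 0.00956) and Cidec 4.86 (adjusted p = 0.0137). Plin1 averaged only 0.302 CPM in control against 13.5 CPM in No-Trp xenografts, so the size of its change rests on few control reads. In livers the list of PPARG and adipocyte targets had 2 of 6 higher, Cidec with 3.02 (adjusted p = 0.0235) and Plin4 with 1.74 (adjusted p = 0.0163), and 1 lower, Fabp4 with -1.05 (adjusted p = 0.0231). Adipoq, Plin1 and Cidec belong both to that list and to the adipocyte markers, so their calls count in both.

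**Figure D5:**
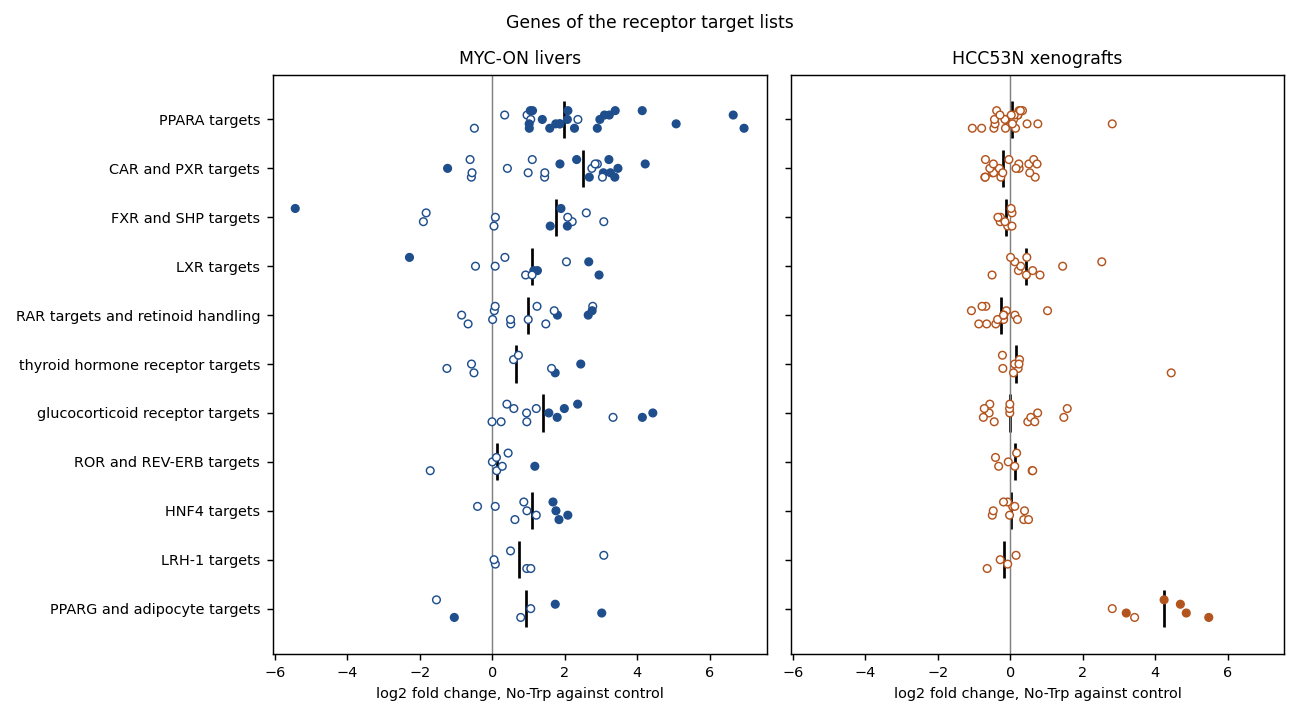
Log2 fold change of No-Trp against control diet for each gene of the receptor target lists, in livers and in xenografts. Points are genes, filled where called, and bars are medians. The PPARA targets have a median of 1.97 in livers and 0.04 in xenografts.

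Marker lists of other cell types had the following calls in the liver diet comparison. Kupffer cell markers were called for 0 of 9, skeletal muscle for 0 of 6, keratinocyte for 0 of 3, cholangiocyte for 0 of 4, and T and B cell for 0 of 5. Stellate cell and fibroblast markers were called higher for 3 of 8, with summed levels of 523 to 685 and 571 to 813 CPM, and neutrophil markers were called lower for 1 of 3.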

How the data were processed

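The 12 files hold gene counts per library, deposited by the authors as raw read counts without normalization. Per the study's methods and the labels, reads were trimmed with Trim Galore, aligned with STAR 2.7.2b to mm10 with its iGenomes annotation, and counted per gene with HTSeq; the strand setting and the rule for overlapping genes are not given in the sources used here. The processing notes also name SAMtools 1.9, and the authors used DESeq2. Unassigned reads were 24.7% to 39.4% of each table and stayed out of library sizes. The libraries held 14660963 to 26085349 assigned reads, which limits the precision of receptors with few reads.

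Counts were tested with edgeR 4.0.16 (quasi-likelihood, TMM factors, filterByExpr) in R 4.3.3, with Benjamini-Hochberg adjustment over all genes tested. The livers and the xenografts were fitted separately for the diet effect, and all 12 libraries together for the interaction and the models. Genes were called at the thresholds of the study, adjusted p no larger than 0.05 with log2 fold change 1 or more in either direction. Groups of 3 allow no two-sided permutation p below 0.1. The tests were checked on simulated counts with 200 genes changed by 2 on the log2 scale. Of these, 87.5% were recovered in the liver comparison and 61.5% in the interaction. Unchanged genes made up 5.91% and 5.38% of the calls. The changed genes were drawn above a floor of mean reads, and 2 exceeds the call limit of 1. Recovery of receptors with few reads, or with changes near 1, was therefore not measured. Each simulated gene also varied on its own, so shifts shared by many genes of 1 mouse were not simulated. These percentages need not hold for the livers, where the calls depended on single mice.

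Alternatives were DESeq2 1.42.0, RLE factors, library totals, other filters, the mark of resubmission as a covariate, fits over other samples, and each library left out in turn. Symbols were matched to GENCODE M21 (GRCm38), 98.4% of 24062. Promoter windows came from RefSeq. The 36 members and the gene lists were chosen with earlier results of these data known. Named genes of the receptor lists are the first 2 of each list and, in each diet comparison, up to 3 called genes with the largest rise and 3 with the largest fall where the higher group averaged 100 reads or more. For 2 lists, 1 of these genes is not reported here. Control xenograft 40 was assigned its diet from the labels alone.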

Additional observations from a re-analysis of the deposited data

Results flagged for a closer look

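The diet effect differed between models by the edgeR interaction test for 9 receptors, which is why they are named here. The xenograft effect minus the liver effect was -3.22 for Nr1i3, -2.42 for Nr2f1, -1.76 for Nr1i2, -1.73 for Rora, -1.46 for Rxra, -1.42 for Nr1d2, -1.32 for Nr6a1, -1.12 for Nr1h2 and -1.07 for Nr2c1, all on the log2 scale. In livers the diet effects ranged from 0.81 for Nr1h2 to 3.15 for Nr1i3, and in xenografts from -0.88 for Nr2f1 to 0.29 for Rora. Of the 9, Nr1i3 stayed called in 5 and Rora in 3 of 12 fits that left out a mouse, and Rora was not called with the mark of resubmission as a covariate. The models differ in host, tissue and cell line, and Nr1i3 shares most of its exon bases with Tomm40l.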

How the results depend on the processing

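With library totals in place of composition factors, the count of called receptors fell to 8 in the liver diet comparison and to 3 in the interaction, as the median of all genes moved to -0.30 and 0.41 on the log2 scale. Leaving out 1 mouse at a time gave 0 to 14 called receptors in livers, 4 to 13 in the interaction, 0 in xenografts, 18 to 21 between models on the control diet and 22 to 23 on the No-Trp diet. DESeq2 called 1 receptor in xenografts, 15 in livers and 12 in the interaction. Adjusted p alone gave 17 in livers. Counts with the resubmission mark as a covariate were 13 in livers and 11 in the interaction. The mark was on control liver 101, No-Trp liver 108 and control xenografts 41 and 43 but on no No-Trp xenograft, so it is unbalanced over diet in the xenografts, where the covariate took the calls over all genes from 53 to 4. For each of the 14 called receptors every No-Trp liver lay above every control liver. A split of the livers by the mark could therefore only show them higher again, and it says nothing on the mark. No called receptor changed direction under the alternatives run, whereas 9 of 20 uncalled receptors in livers and 13 of 32 in xenografts did under at least 1. Called receptors were chosen for a large change in these same mice, so their constant direction is no separate support. No paired analysis was possible because mouse numbers are not shared between the groups. Receptors with few reads, such as Esrrg, Rxrg, Nr0b2 and Nr2f1, have the least precise values.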
